A study of Mus musculus with 64 samples.

Results

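Cholesterol efflux and lipid handling in retinal microglia were followed through 8 genes, *Abca1*, *Abcg1*, *Apoc1*, *Fabp5*, *Ch25h*, *Nr1h3*, *Soat1* and *Plin2*. They were chosen by symbol, with no measured value in the rule but with earlier results of these data known. The shares of all genes set beside them therefore describe them and are not a test of the choice. All 8 are among the 25239 genes of the batch-corrected table. The mice were *Cx3cr1CreER:R26-tdTomato* heterozygotes on a C57BL/6J background, in which the fractalkine receptor gene drives a tamoxifen-inducible Cre and tamoxifen eye drops, followed by a washout, leave the red protein tdTomato in microglia. All groups carry this label. Naive mice had no injection, and the other mice received an intravitreal (IVT) injection of 2 µL per eye of AAV2 null, a viral vector without a transgene, at 1e10 genome copies (gc) per eye, and were taken at day 12 or day 28. Females and males of 3, 9 and 18 months were used, which gives 18 groups of 2 to 4 libraries, and each library holds the RNA of 600 tdTomato-bright living cells sorted from a single retina. No sham-injected group was analysed here, so the injection itself and the vector cannot be told apart.

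The comparisons used 62 libraries, with 7 naive, 8 day-12 and 7 day-28 libraries at 3 months, 5, 7 and 7 at 9 months, and 7, 7 and 7 at 18 months. The totals were 1468478 to 9836173 counts per library (median 4188992). At that depth 3 counts, the smallest amount read as present, equal 0.361 to 2.12 CPM (counts scaled to a library of 1e6). Levels are given as CPM scaled by TMM, and changes as log2 fold changes ± standard error (SE), averaged over the sexes with equal weight. The labels limit 2 libraries: 1 of 18-month-old males has both day labels and was kept at day 28, and 1 labelled as an 18-month-old female at day 28 was left out because it held no *Xist* counts and 375 CPM of Y-linked genes. The sort and the microglial state were read through 10 microglia markers, whose summed level was 31040 to 53880 CPM in naive libraries. In 19 of the 22 day-12 libraries the sum was 8790 to 21380 CPM. The other 3 day-12 libraries stood apart at 29950 CPM (9-month-old male replicate 2), 36520 CPM and 31610 CPM (18-month-old female replicates 1 and 2), so calls at day 12 are also given without these 3. This exclusion was chosen after seeing the data. It goes by markers that themselves fell at day 12, so it removes the day-12 libraries that changed least in them. The number of calls can rise for that reason alone, and calls gained in this way are descriptions and not support. At day 28 the 18-month-old male with both day labels was at 46380 CPM, above the naive libraries of 18 months (31040 to 46100 CPM). The other day-28 libraries of 18 months were at 17320 to 28510 CPM.

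Cells cannot break down the ring of cholesterol, so a surplus is exported, stored or turned into signals. The liver X receptors (LXR; *Nr1h3* encodes LXR alpha) sense oxysterols and, paired with RXR, switch on the exporters ABCA1 and ABCG1, which hand cholesterol and phospholipid to apolipoprotein particles. What is not exported is esterified by SOAT1 and kept in droplets coated by perilipin 2, the product of *Plin2*. Microglia that clear myelin or dying cells take up much lipid, and *Apoc1*, *Fabp5* and *Abca1* are known to rise in such cells.

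*Ch25h* makes 25-hydroxycholesterol and is known as an interferon-stimulated gene, while *Abca1* is the classical LXR target, and these 2 genes moved in opposite directions between ages at day 12. Their promoters are shown for that reason. Each is the 250 bases before the RefSeq transcript start in GRCm38.p6, the assembly that mm10 names, read 5′ to 3′ on the gene's strand, which is the minus strand for both. Capitals mark the 1 match found to a DR4 element, the LXR element of 2 AGGTCA repeats in the same orientation 4 bases apart, with up to 3 of their 12 letters changed.
Abca1 (chr4:53159896-53160145): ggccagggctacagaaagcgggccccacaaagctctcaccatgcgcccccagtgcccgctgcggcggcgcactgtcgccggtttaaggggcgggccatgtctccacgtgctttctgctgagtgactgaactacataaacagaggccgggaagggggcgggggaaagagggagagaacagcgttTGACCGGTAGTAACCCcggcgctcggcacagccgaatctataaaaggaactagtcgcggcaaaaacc
Ch25h (chr19:34475149-34475398): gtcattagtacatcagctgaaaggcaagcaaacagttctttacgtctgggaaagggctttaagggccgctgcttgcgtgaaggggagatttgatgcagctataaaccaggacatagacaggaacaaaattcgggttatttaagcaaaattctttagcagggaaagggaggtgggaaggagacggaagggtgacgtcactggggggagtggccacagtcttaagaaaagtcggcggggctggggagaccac
The *Abca1* match lies on the opposite strand at bases -67 to -52, with 3 letters changed, and 18.5% of 32851 mouse promoters of this length hold such a match on either strand. *Ch25h* held no match to DR4, to DR1 (the same repeats 1 base apart), to a single AGGTCA, to the core of the interferon response element (a pair of GAAA runs 2 bases apart) or to TTCNNNGAA (the STAT site), on either strand. The interferon response element core was present in 2.98% and TTCNNNGAA in 7.02% of promoters. Both promoters held an E-box (CANNTG, in 66.2% of promoters). Of the 8 genes, 5 have a promoter entry in the RefSeq table used. In *Plin2* a single AGGTCA (14% of promoters) overlapped the first of 2 matches to DR1 with up to 3 letters changed (21.3%), at bases -225 to -213 and -161 to -149. The promoters of *Nr1h3* and *Soat1* held none of these motifs apart from an E-box in 1 of the 2 *Nr1h3* entries. A match describes letters and not a bound site.

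The genes lie on 7 chromosomes in GRCm38 (GENCODE M21): *Abca1* at 53030787 to 53159895 and *Plin2* at 86648386 to 86670060 of chromosome 4, *Abcg1* at 31057675 to 31117988 of chromosome 17, *Apoc1* at 19689481 to 19692660 of chromosome 7, *Fabp5* at 10012548 to 10016607 of chromosome 3, *Ch25h* at 34473778 to 34475164 of chromosome 19, *Nr1h3* at 91184061 to 91202834 of chromosome 2 and *Soat1* at 156424525 to 156474331 of chromosome 1. The counts are over exons and cannot show which transcript they come from. Per kilobase of exon, the mean levels in naive microglia at 3 months were 22.3 CPM for *Apoc1*, 21.2 for *Fabp5*, 21.1 for *Plin2*, 10.3 for *Soat1*, 8.97 for *Ch25h*, 4.97 for *Abca1*, 1.47 for *Abcg1* and 0.432 for *Nr1h3*. At day 12 the mean of *Apoc1* per kilobase was 344 CPM and that of *Fabp5* 216 CPM, while *Nr1h3* was at 2.53 CPM.

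**Figure D1:**
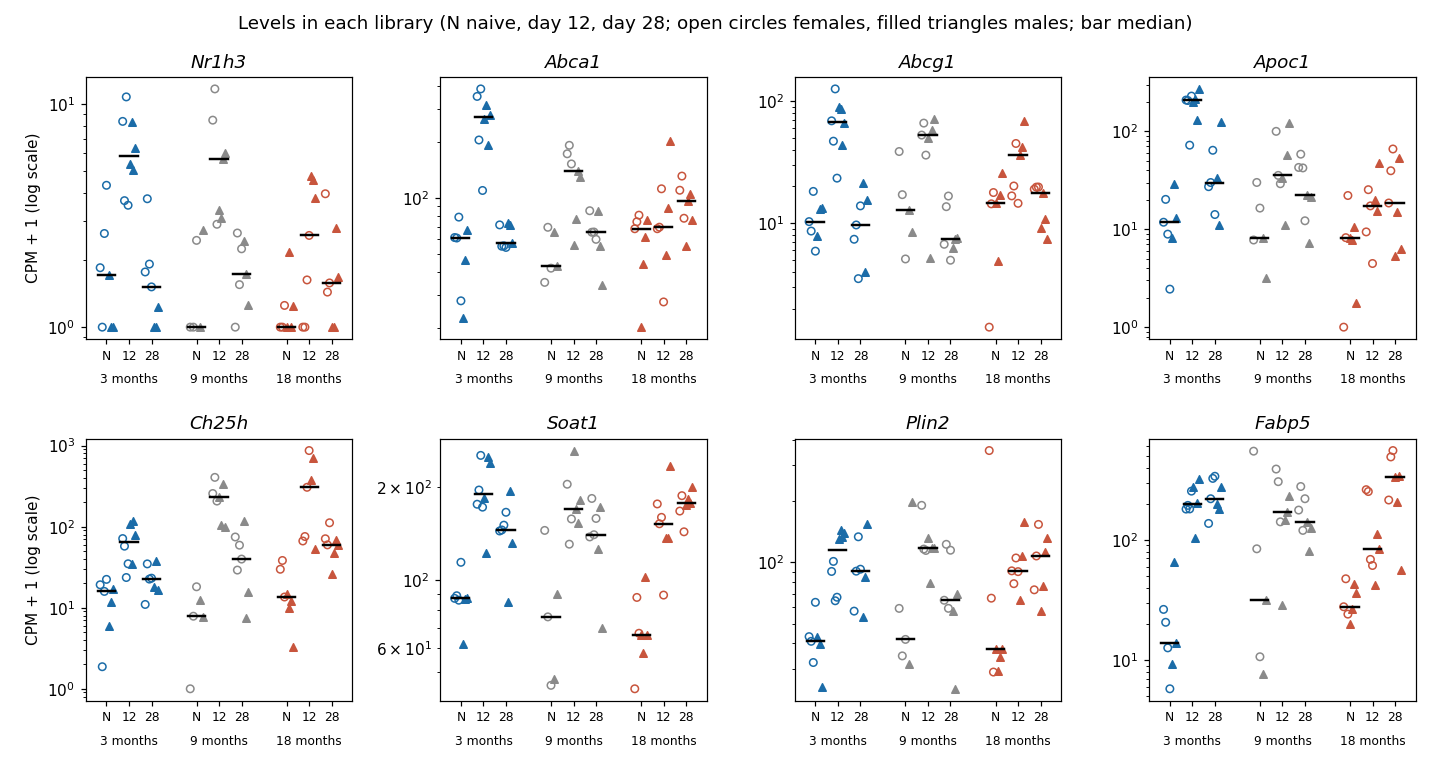
Level of each gene in each of the 62 libraries, as CPM + 1 on a log axis, by age and day (N naive, then day 12 and day 28). Open circles are females, filled triangles are males and bars are medians. At 3 months the day-12 libraries of *Abca1*, *Abcg1*, *Apoc1*, *Fabp5*, *Ch25h*, *Soat1* and *Plin2* all lie above every naive library, while at 18 months this holds at day 12 only for *Ch25h*. How many of all genes separate in this way at each age was not counted, so these separations describe single genes only.

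At 3 months, 6 of the 8 genes rose from naive to day 12, *Apoc1*, *Fabp5*, *Nr1h3*, *Abcg1*, *Abca1* and *Ch25h*, against 4.64% of the 12002 genes tested that changed in either direction (edgeR glmTreat against a log2 fold change of 1, adjusted p under 0.05). The median log2 fold change of the 8 genes was 2.58, beside -0.019 over all genes. *Nr1h3* counts in both, though among naive or day-28 libraries alone it was too low to be tested. It thus passed the filter on low counts through the day-12 libraries, where it is high, and its rise adds no support. Its call was also lost in 7 of 12 alternatives. By day 28 only *Fabp5* of the 8 passed (1% of genes), and the median was 0.845. At 9 months 2 of the 8 rose at day 12, *Apoc1* and *Ch25h* (3.93% of 12364 genes, median of the 8 genes 1.72), and none passed at day 28 (0.752%). At 18 months *Ch25h* alone rose at day 12 (3.01% of 11907 genes, median 1.38) and *Fabp5* alone at day 28 (0.521%). Without the libraries that stood apart, the same 2 genes were called at day 12 at 9 months (*Apoc1* 2.79, adjusted p = 0.00785; *Ch25h* 4.89, adjusted p = 2.94e-04; *Abcg1* 1.99, adjusted p = 0.0635) and *Ch25h* alone at 18 months, where the other 7 gave 0.56 (*Abca1*) to 3.14 (*Nr1h3*). *Fabp5* moved there from 1.85 to 1.20 (adjusted p = 0.740). The 2 days were compared with the same naive libraries. All 8 log2 fold changes at day 12 were above 0 at each age, that of *Nr1h3* with the limit given above.

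*Nr1h3*, the LXR alpha receptor, was the lowest of the 8 genes. It was at or under 3 counts in 13 of 19 naive libraries, 3 of 22 at day 12 and 12 of 21 at day 28. At 3 months the naive libraries ran from 0 to 3.32 CPM (median 0.705) and the day-12 libraries from 2.52 to 9.76 CPM (median 4.86), so that 6 of 8 day-12 libraries lay above every naive library. The log2 fold change was 3.05 ± 0.78 (adjusted p = 0.0413), a size that depends on how 0 counts are handled. This call was lost without any 1 of 10 libraries (3-month-old female naive replicates 1, 2 and 3, male naive replicates 2 and 3, female day-12 replicates 1 and 3, and male day-12 replicates 1, 2 and 4), with adjusted p up to 0.139, and in 7 of 12 alternatives, among them DESeq2 (0.148) and the replicate block (0.0711). At 9 months the 5 naive libraries held 0, 0, 1.45, 0 and 1.73 CPM and the day-12 libraries 1.89 to 10.7 CPM (median 4.69). The groups did not overlap, but the test was not passed (log2 fold change 2.86 ± 1.07, adjusted p = 0.288; 4.96 and 0.0397 without 9-month-old female naive replicate 3). At 18 months the day-12 libraries held 0 to 3.77 CPM (median 1.58), against 0 to 1.18 CPM in naive libraries. At day 28 the medians were 0.515, 0.739 and 0.578 CPM at 3, 9 and 18 months, within the naive ranges for 7 of 7, 7 of 7 and 5 of 7 libraries.

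*Abca1*, which loads cholesterol onto lipid-poor apolipoproteins, ran from 21.4 to 77.7 CPM in naive libraries at 3 months (median 59.7) and from 108.5 to 385 CPM at day 12 (median 272). Every day-12 library was above every naive library. The log2 fold change was 2.41 ± 0.25 (adjusted p = 1.56e-05). At 9 months the 5 naive libraries held 34.0, 68.4, 40.8, 64.5 and 42.0 CPM. The day-12 libraries held 54.5 to 191 CPM (median 139), and 6 of 7 were above every naive library, with a log2 fold change of 1.37 ± 0.28 that did not pass the test against a 2-fold change (adjusted p = 0.327). At 18 months the ranges overlapped widely, 19.1 to 79.6 CPM in naive (median 67.1) and 26.5 to 201 CPM at day 12 (median 68.4), with a log2 fold change of 0.55 ± 0.32 (adjusted p = 1). At day 28 *Abca1* was back within the naive range in 7 of 7 libraries at 3 months (53.0 to 72.0 CPM), and it fell by 2.07 ± 0.25 on the log2 scale from day 12 to day 28 (adjusted p = 0.00402, 0.392% of genes called).

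*Abcg1*, the partner that exports cholesterol to mature lipoprotein particles, followed the same order at a lower level. At 3 months it went from 4.91 to 17.2 CPM in naive libraries (median 9.31) to 22.4 to 125 CPM at day 12 (median 66.8), again without overlap, a log2 fold change of 2.76 ± 0.38 (adjusted p = 1.83e-04). It fell by 2.82 ± 0.38 from day 12 to day 28 (adjusted p = 0.00152), to 2.52 to 20.5 CPM. At 9 months the naive values were 37.6, 16.1, 4.10, 11.8 and 7.47 CPM, and 5 of 7 day-12 libraries (4.18 to 70.3 CPM, median 51.6) were above all of them, with a log2 fold change of 1.80 ± 0.53 (adjusted p = 0.243). The 4.18 CPM belong to the male library that stood apart. From day 12 to day 28 at 9 months *Abcg1* gave a difference of -2.62 ± 0.49, just outside the threshold (adjusted p = 0.0532, 0.404% of genes called). It was called without that library (fell by 2.81 ± 0.40, adjusted p = 0.00255), and also without 9-month-old female day-28 replicate 3, female naive replicate 1 or 3, or male naive replicate 1 or 2. At 18 months the day-12 libraries held 13.6 to 67.7 CPM (median 35.0) against 0.412 to 24.7 CPM in naive (median 13.6), a log2 fold change of 1.45 ± 0.46 (adjusted p = 0.606). None of the 8 genes passed between day 12 and day 28 at 18 months, where 0% of 11907 genes did (glmTreat); a plain test at adjusted p under 0.05 with a change over 2-fold called 110 genes, *Ch25h* among them (-2.50 ± 0.55).

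*Apoc1*, an apolipoprotein of the cluster that also holds *Apoe*, had the largest change of the 8 genes at 3 months. Its naive libraries held 1.44 to 28.2 CPM (median 10.8) and its day-12 libraries 71.2 to 270 CPM (median 206.5), with a log2 fold change of 3.94 ± 0.47 (adjusted p = 4.24e-06). The 71.2 CPM library, female replicate 3, was far from the other females of its group (205 to 228 CPM), yet was above every naive library. At 9 months the naive libraries held 6.76, 29.0, 15.4, 7.12 and 2.16 CPM and the day-12 libraries 9.92 to 121 CPM (median 34.5), of which 5 of 7 were above all naive ones. *Apoc1* rose there by 2.62 ± 0.58 (adjusted p = 0.0310), but the call was lost without 9-month-old male naive replicate 1 or 2, female day-12 replicate 1 or male day-12 replicate 4, with adjusted p up to 0.229. It was also lost in 8 of 12 alternatives, among them DESeq2 (0.0645), the replicate block (0.0771) and all libraries in 1 fit (0.0517). At 18 months *Apoc1* ran from 0 to 21.1 CPM in naive (median 7.16) and from 3.47 to 46.4 CPM at day 12 (median 16.3), with 2 of 7 day-12 libraries above every naive library and a log2 fold change of 1.30 ± 0.66 (adjusted p = 1). At day 28 its medians were 29.0, 21.3 and 17.5 CPM at the 3 ages, with log2 fold changes of 1.81 ± 0.45, 1.49 ± 0.56 and 1.86 ± 0.67 that did not pass. From day 12 to day 28 at 3 months it gave -2.12 ± 0.42 (adjusted p = 0.159), and without male day-28 replicate 3 it was called (-2.89, adjusted p = 0.00560).

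*Ch25h*, cholesterol 25-hydroxylase, was the 1 gene of the 8 that rose at day 12 at all 3 ages, and in each the day-12 libraries did not overlap the naive ones. At 3 months it held 0.872 to 21.4 CPM in naive (median 14.9) and 22.6 to 115 CPM at day 12 (median 63.4), a log2 fold change of 2.35 ± 0.40 (adjusted p = 0.00535). That 3-month call was lost in 5 of 12 alternatives: DESeq2 (adjusted p = 0.123), females alone (1.69, 0.466), all libraries in 1 fit (0.0571) and each collection day alone. At 9 months the naive libraries held 0, 6.86, 17.1, 11.4 and 6.76 CPM and the day-12 libraries 97.0 to 404 CPM (median 230), a log2 fold change of 4.79 ± 0.75 (adjusted p = 4.85e-04). At 18 months the naive libraries held 2.25 to 37.3 CPM (median 12.6). The 7 day-12 libraries spread over 51.5 to 868 CPM (median 305), with a log2 fold change of 4.54 ± 0.62 (adjusted p = 3.61e-04), and the 2 female libraries with high microglia markers were at 65.6 and 74.6 CPM. Without them the value was 4.97 ± 0.52 (adjusted p = 3.17e-06). The call was lost in males alone at 9 months (4.4, adjusted p = 0.0786) and in females alone at 18 months (3.67, adjusted p = 0.182). *Ch25h* came down by day 28, to medians of 21.6, 38.8 and 58.6 CPM, and there 4 of 7, 5 of 7 and 6 of 7 libraries were still above every naive library of their age, with log2 fold changes of 0.92 ± 0.41, 2.50 ± 0.67 and 2.04 ± 0.56 that did not pass. From day 12 to day 28 at 9 months it gave -2.29 ± 0.56 (adjusted p = 0.207), and without male day-28 replicate 2 it was called (-3.34, adjusted p = 0.0153).

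*Soat1*, which esterifies cholesterol, and *Plin2*, which coats lipid droplets, gave smaller differences. *Soat1* held 60.8 to 113 CPM in naive libraries at 3 months (median 86.1) and 121 to 253 CPM at day 12 (median 189). The 2 groups did not overlap, and the log2 fold changes were 1.22 ± 0.17, 1.19 ± 0.29 and 1.19 ± 0.20 at 3, 9 and 18 months. They were above 0 at an adjusted p of 2.38e-06, 0.00739 and 3.19e-04 by the plain quasi-likelihood test, but did not pass the test against a 2-fold change (adjusted p = 0.390, 0.683 and 0.615). At day 28 and 18 months all 7 *Soat1* libraries (142 to 200 CPM) were above all 7 naive ones (43.2 to 101 CPM), with a log2 fold change of 1.35 ± 0.20. *Plin2* held 23.4 to 62.5 CPM in naive at 3 months (median 39.9) and 63.7 to 143 CPM at day 12 (median 114), a log2 fold change of 1.40 ± 0.21 (adjusted p = 0.132; 1.5 and 0.0458 without 3-month-old female naive replicate 4). In the older mice single naive libraries were high in *Plin2*: the 5 naive libraries of 9 months held 58.3, 33.7, 40.8, 30.5 and 196 CPM, and those of 18 months 27.9 to 352 CPM (median 36.4). Its day-12 medians there were 116 and 89.7 CPM, with log2 fold changes of 0.80 ± 0.36 and 0.51 ± 0.37. At day 28 and 3 months *Plin2* held 53.0 to 152 CPM (median 89.4), with 5 of 7 libraries above every naive one and a log2 fold change of 1.28 ± 0.22 (adjusted p = 0.884 against a 2-fold change, 1.59e-04 by the plain test). *Soat1* was at 0.77 ± 0.18 there, with 6 of 7 libraries above every naive one (adjusted p = 1, 0.00499 by the plain test).

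*Fabp5*, a fatty acid binding protein, was the 1 gene of the 8 called against naive at day 28, at 3 and 18 months. At 3 months its level was 4.77 to 63.9 CPM in naive (median 12.8), 103 to 318 CPM at day 12 (median 197) and 136 to 337 CPM at day 28 (median 219). The injected groups did not overlap the naive group, and *Fabp5* rose by 3.34 ± 0.36 at day 12 (adjusted p = 1.24e-06) and 3.50 ± 0.36 at day 28 (adjusted p = 3.03e-06). The difference between the 2 days was 0.16 ± 0.31. At 9 months the naive libraries held 546, 83.3, 9.65, 6.71 and 30.6 CPM, so the day-12 range of 27.4 to 387 CPM and the day-28 range of 80.3 to 277 CPM lay within them, and neither day passed (1.64 ± 0.62 and 1.26 ± 0.61). Without the naive library at 546 CPM, female replicate 1, *Fabp5* rose by 2.74 at day 12 (adjusted p = 0.0109), and so did *Abcg1*, which was at 37.6 CPM in that library (2.27, adjusted p = 0.0466). At 18 months *Fabp5* ran from 18.9 to 46.5 CPM in naive (median 26.8), 41.0 to 261 CPM at day 12 (median 83.4) and 54.6 to 553 CPM at day 28 (median 334). It rose at day 28 (3.32 ± 0.43, adjusted p = 0.00113), and the day-12 value was 1.85 ± 0.41 (adjusted p = 0.122). The day-28 call was kept in all 21 fits with 1 library left out, the male with both day labels among them. It was lost in 3 of 14 alternatives: females alone, males alone and the first collection day alone, with adjusted p up to 0.257 (glmTreat). The difference from day 12 to day 28 was not called (1.47 ± 0.40, adjusted p = 1), and without the libraries that stood apart it was 2.12 ± 0.40 (adjusted p = 0.0551).

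**Figure D2:**
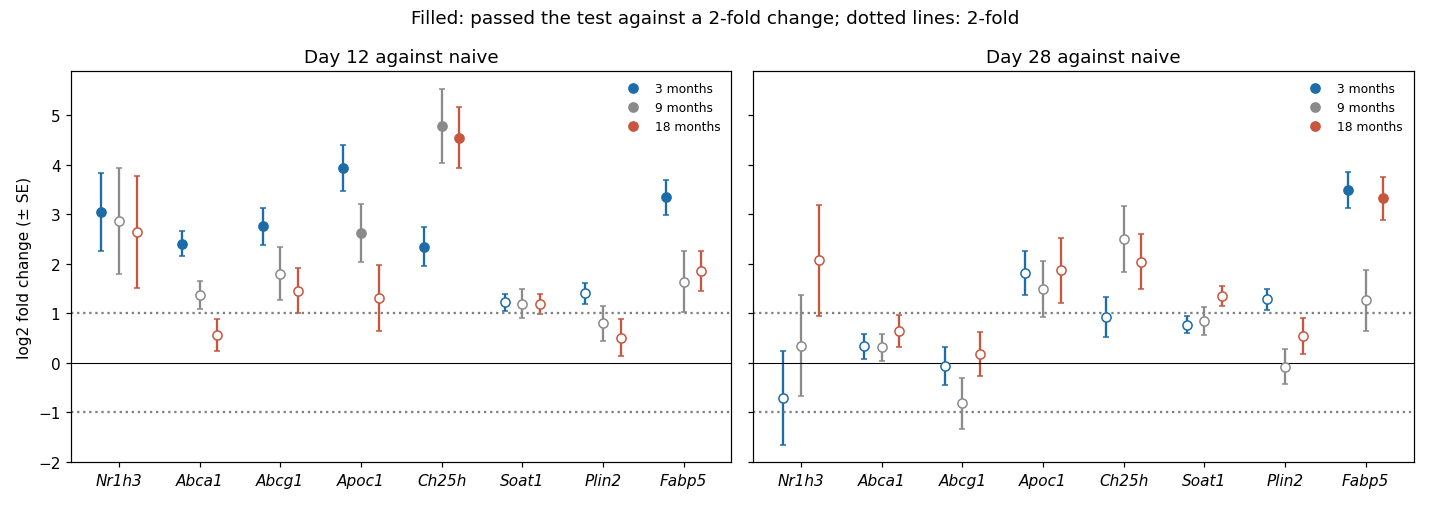
Log2 fold change ± SE of the 8 genes from naive to day 12 (left) and day 28 (right) at each age, with females and males weighted equally. Filled points passed the test against a 2-fold change, which the dotted lines mark. At day 12, 6 genes passed at 3 months (blue), 2 at 9 months (grey) and 1 at 18 months (red), and at day 28 *Fabp5* alone passed, at 3 and 18 months.

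The 2 collection days, a batch that ComBat_seq had adjusted for, were also read separately. At day 12 *Abca1* gave 2.84 and 2.23, *Apoc1* 4.06 and 4.52 and *Fabp5* 3.54 and 3.67 in the first and the second collection, each past the threshold. *Abcg1* gave 2.97 and 2.53 (adjusted p = 0.00315 and 0.0544), *Ch25h* 3.45 and 1.59 (adjusted p = 0.0593 and 0.346) and *Nr1h3* 3.59 and 2.28 (0.386 and 0.762). *Ch25h* gave 5.56 and 4.37 at 9 months (0.122 and 3.76e-05) and 3.37 and 5.08 at 18 months (0.650 and 2.36e-04). *Apoc1* at 9 months gave 2.89 and 2.40 (0.344 and 0.304), while in the second collection *Abcg1* (2.65, 0.0265) and *Fabp5* (2.50, 0.0432) were called there. *Fabp5* at day 28 gave 3.40 and 3.87 at 3 months, both past the threshold, and 3.5 and 3.23 at 18 months (0.257 and 0.00791). From day 12 to day 28 at 3 months *Abca1* gave -2.29 and -2.11 (0.0476 and 0.219) and *Abcg1* -2.58 and -3.01 (0.0766 and 0.183).

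Other cell types and the microglial state moved with day. In bulk samples fewer cells of a type and less RNA per cell cannot be told apart. At 3 months the 10 microglia markers summed to 32680 to 52660 CPM in naive, 13870 to 21380 CPM at day 12 and 24860 to 35800 CPM at day 28, and 5 of the 10 fell at day 12, *P2ry12* among them (fell by 2.42 ± 0.16). The 5 T cell markers in the tables summed to 0 to 23.5 CPM in naive and 54.3 to 294 CPM at day 12, and all 5 rose. The 8 monocyte markers summed to 4.89 to 120 CPM in naive and 8.67 to 350 CPM at day 12, where *Ly6c2* and *Plac8* rose, *F13a1* fell and 2 of the 8 were at 0 in every library. The 6 border macrophage markers summed to 84.6 to 400 CPM in naive and 0 to 27.6 CPM at day 12, where 4 of the 6 fell and 2 of the 6 were at 0 in every library. The 6 Muller glia and astrocyte markers summed to 255 to 360 CPM in naive and 372 to 522 CPM at day 12, where 1 rose. Their day-12 medians at 9 and 18 months were 295 and 320 CPM, beside 326 and 351 CPM in naive. The 7 photoreceptor markers summed to 1263 to 2665 CPM in naive and 431 to 2021 CPM at day 12 at 3 months. No photoreceptor, B cell, retinal pigment epithelium or endothelium marker was called there. The part of these cells in the changes of the 8 genes was not tested.

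Between ages the comparisons at day 12 set *Ch25h* apart from *Apoc1* and *Abca1*. At 18 against 3 months 3 of the 8 genes changed at an adjusted p under 0.1 (glmQLFTest; 1.68% of 11741 genes): *Apoc1* fell by 3.32 ± 0.47 on the log2 scale (adjusted p = 0.00119), *Abca1* fell by 1.56 ± 0.33 (adjusted p = 0.0401) and *Ch25h* rose by 2.54 ± 0.51 (adjusted p = 0.0401). For *Apoc1* the day-12 groups did not overlap, at 71.2 to 270 CPM and 3.47 to 46.4 CPM. For *Abca1* 5 of 7 libraries of 18 months were below every library of 3 months, and for *Ch25h* 4 of 7 were above every one. *Nr1h3* (-1.93 ± 0.57, adjusted p = 0.120), *Abcg1* (-1.01 ± 0.40, adjusted p = 0.252) and *Fabp5* (-0.91 ± 0.38, adjusted p = 0.287) did not pass, and *Soat1* (-0.34 ± 0.21) and *Plin2* (-0.05 ± 0.19) gave the smallest differences. At 9 against 3 months 2 of the 8 changed (2.01%): *Apoc1* fell by 1.78 ± 0.43 (adjusted p = 0.0481) and *Ch25h* rose by 1.95 ± 0.50 (adjusted p = 0.0591), while *Abca1* was at -0.99 ± 0.32 (adjusted p = 0.162). The 2 older ages were compared with the same 3-month libraries.

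**Figure D3:**
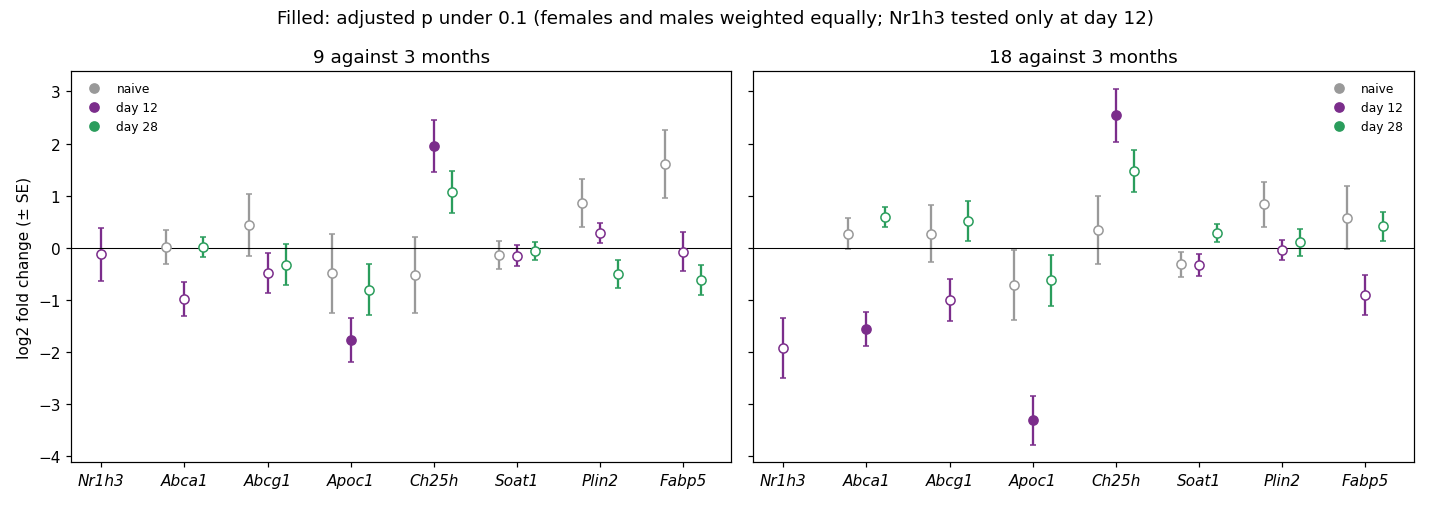
Log2 fold change ± SE of the 8 genes at 9 (left) and 18 (right) against 3 months in naive, day-12 and day-28 libraries, with filled points for an adjusted p under 0.1. Only day-12 points passed: *Apoc1* below 0 and *Ch25h* above 0 at both ages, and *Abca1* below 0 at 18 months.

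Leaving out single libraries ended several of these calls. At 18 against 3 months the *Abca1* call was lost without any 1 of 5 libraries (3-month-old female day-12 replicate 3 and male replicate 1, and 18-month-old female replicate 4 and male replicates 1 and 2), and that of *Ch25h* without any 1 of 4 of these (all but the 3-month-old male). The log2 values were -1.94 to -1.38 for *Abca1* and 1.96 to 2.80 for *Ch25h*, with adjusted p up to 0.144. *Apoc1* was called in all 22 such fits. On uncorrected counts with no batch term, *Abca1* was not called at 18 months (-1.5, adjusted p = 0.121), nor were *Apoc1* (0.194) and *Ch25h* (0.122) at 9 months, nor *Abca1* in the age-by-day-12 test given further on (-1.8, 0.136) or *Apoc1* in females (0.238). At 9 against 3 months *Apoc1* was lost without any 1 of 3 libraries (9-month-old female day-12 replicates 2 and 3 and male replicate 1) and *Ch25h* without any 1 of 9 of 22 libraries (these 3, 9-month-old male replicate 3, 3-month-old female replicates 3 and 4 and male replicates 1, 2 and 4). Without the 3 libraries that stood apart, 4 of the 8 changed at 18 against 3 months (6.05% of 12031 genes): *Apoc1* fell by 3.58 ± 0.47, *Abca1* fell by 1.6 ± 0.37, *Fabp5* fell by 1.6 ± 0.38 (adjusted p = 0.0131) and *Ch25h* rose by 2.92 ± 0.42. By collection day *Apoc1* gave -3.64 and -3.85 (adjusted p = 0.122 and 0.00464), *Abca1* -2.48 and -1.35 (0.121 and 0.214) and *Ch25h* 1.13 and 3.35 (1 and 0.0197) in the first and the second, and both 18-month-old females that stood apart are of the first.

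**Figure D4:**
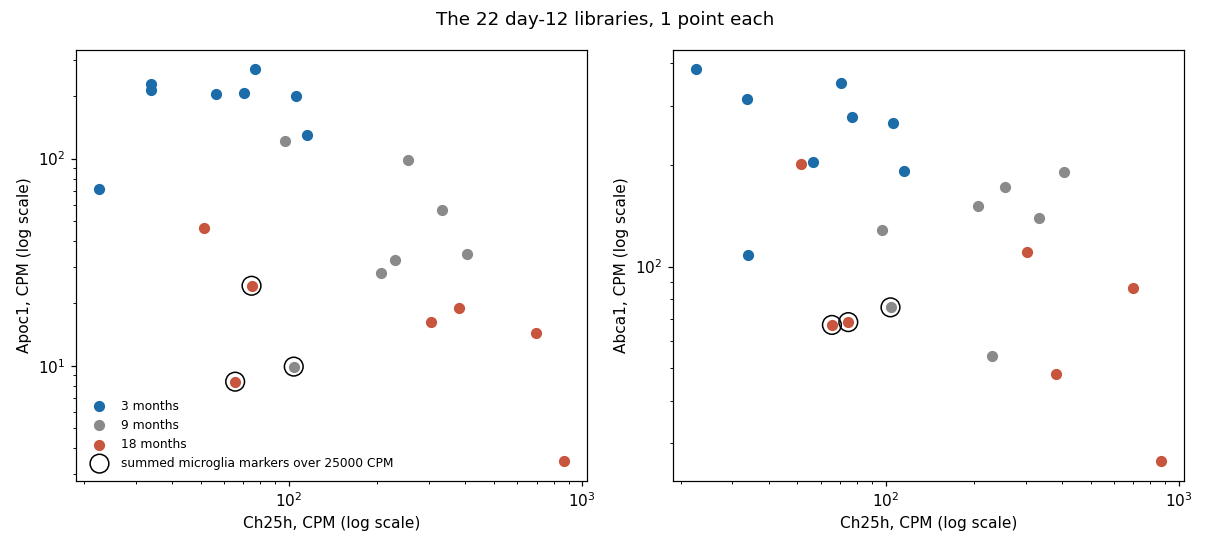
Level of *Apoc1* (left) and *Abca1* (right) against that of *Ch25h* in the 22 day-12 libraries, in CPM on log axes, coloured by age; rings mark the 3 libraries with summed microglia markers over 25000 CPM. In the *Apoc1* panel all 8 libraries of 3 months lie at 71.2 CPM or more and all 7 of 18 months at 46.4 CPM or less, and the library highest in *Ch25h* (868 CPM) is lowest in both other genes.

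In the day-12 libraries of 18 months, *Ch25h* held 65.6, 74.6, 305 and 868 CPM in female replicates 1 to 4 and 381, 697 and 51.5 CPM in male replicates 1 to 3. In the same order *Apoc1* held 8.39, 24.4, 16.3, 3.47, 19.0, 14.3 and 46.4 CPM. *Abca1* held 67.1, 68.4, 111, 26.5, 48.1, 86.6 and 201 CPM. The libraries at both ends of *Ch25h* were at the opposite ends of *Apoc1* and *Abca1*, but female replicate 1 was second-lowest in both *Ch25h* and *Apoc1*. The 8 monocyte markers summed to 13.6 to 1140 CPM in these 7 libraries (median 200) and to 8.67 to 350 CPM in the 8 of 3 months (median 35.2), with 1 and 2 of the 8 at 0 in every library. The 1140 CPM belong to female replicate 4, and *Plac8* was the 1 marker called between the ages (3.49 ± 0.87, adjusted p = 0.0636). The T cell markers summed to 1.57 to 355 CPM at 18 months and 54.3 to 294 CPM at 3 months, and the microglia markers to 12880 to 36520 CPM and 13870 to 21380 CPM. Their part in the age differences of the 8 genes was not tested.

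Naive and day-28 libraries gave no called age difference. None of the 7 genes tested (all but *Nr1h3*, whose counts were too low) passed at 18 against 3 months in naive libraries (0.0651% of 12294 genes) or at day 28 (0.22% of 11832), nor at 9 against 3 months in naive (0%) or at day 28 (0%; glmQLFTest). *Apoc1* differed by -0.72 ± 0.68 in naive and -0.63 ± 0.49 at day 28, and *Abca1* by 0.27 ± 0.30 and 0.59 ± 0.19. *Ch25h* differed by 0.33 ± 0.65 in naive and 1.47 ± 0.40 at day 28 (adjusted p = 0.203), where 6 of 7 libraries of 18 months were above every library of 3 months. That *Ch25h* difference was called without 9-month-old male day-28 replicate 2 (1.47, adjusted p = 0.0157) or replicate 3 (0.0692), which only share the fit. Tested directly, the change from naive to day 12 was smaller at 18 than at 3 months for *Abca1* (difference -1.87 ± 0.41, adjusted p = 0.0613; 0.155% of 13584 genes) and was not called for *Apoc1* (-2.66 ± 0.82, adjusted p = 0.165) or *Ch25h* (2.16 ± 0.77, adjusted p = 0.237). The *Abca1* call was lost without any 1 of 7 libraries: 3-month-old female naive replicate 4 and male naive replicate 1, 3-month-old female day-12 replicate 3 and male replicate 4, and 18-month-old female day-12 replicate 4 and male replicates 1 and 2. Without the 3 libraries that stood apart, *Abca1* (-1.87 ± 0.44), *Apoc1* (-2.88 ± 0.86) and *Ch25h* (2.58 ± 0.75) were all called (adjusted p = 0.0234, 0.0826 and 0.0703; 2.31% of 13546 genes). That exclusion goes by markers that fell at day 12, so the added calls are no separate support. The same test for day 28 called none of the 8 (0%).

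Females and males were compared in the same fits. The difference between the sexes in the change from naive to day 12 passed for none of the 8 genes at 3 months (0.0583% of genes), 9 months (0.00809%) or 18 months (0%; glmQLFTest). The largest differences were 2.56 ± 1.23 for *Fabp5* at 9 months and 2.43 ± 0.73 for *Plin2* at 18 months, male minus female, where naive female replicate 1 held 546 CPM of *Fabp5* at 9 months and 352 CPM of *Plin2* at 18 months. At 18 against 3 months and day 12, *Apoc1* fell by 3.71 ± 0.63 in females (adjusted p = 0.0158; 0.0341% of genes) and gave -2.93 ± 0.68 in males (adjusted p = 0.516; 0%). *Ch25h* gave 2.89 ± 0.72 and 2.2 ± 0.73 and *Abca1* -1.93 ± 0.44 and -1.20 ± 0.48 in females and males, none called. In females *Abca1* and *Ch25h* were both called without 18-month-old female replicate 1, male replicate 3 or 9-month-old male replicate 2, *Abca1* also without 18-month-old female replicate 3 and *Ch25h* without replicate 2. At day 28 no gene of the 8 passed in females (0.118%) or males (0.00845%). *Ch25h* gave 1.87 ± 0.56 in females (glmQLFTest, adjusted p = 0.267) and was called without 9-month-old male day-28 replicate 2 (adjusted p = 0.0452). The study's own analysis, run with DESeq2, names *Ch25h* among the genes higher in old females at day 28. It names *Apoc1* and *Fabp5* among those lower in old males at day 12, where none was called here. The sex difference of the age effect was not called for any of the 8 at day 12 (0%) or day 28 (0%), and for *Apoc1* at day 12 it was 0.78 ± 0.84.

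Over the means of the 18 groups (log2 of CPM + 1), the highest Pearson correlations were 0.860 for *Nr1h3* and *Abcg1* and 0.842 for *Nr1h3* and *Abca1*. *Nr1h3* was at or under 3 counts in 28 of 62 libraries, so its values here rest on levels near that limit. *Apoc1* and *Abca1* gave 0.827, *Fabp5* and *Soat1* 0.826, and *Abca1* and *Abcg1* 0.820. The lowest values were 0.372 for *Fabp5* with *Abcg1* and 0.381 for *Fabp5* with *Nr1h3*, and *Ch25h* with *Apoc1* gave 0.479. These are descriptions of 18 means that share days, ages and sorts. Among 9443 genes of at least 10 CPM in a group, the genes most like *Abca1* were *Scarb2* (0.916), *Clcn7* (0.893) and *Mpeg1* (0.887), and *Mpeg1* (0.867) was also among those of *Apoc1*, with *Cacul1* (0.877) and *Myo5a* (0.864). *Abcg1* was most like *Trafd1* (0.916), *Slc4a8* (0.915) and *Myh10* (0.906), and *Nr1h3* was most like *Slc4a8* (0.901), *Trafd1* (0.892) and *Rnf213* (0.891). *Ch25h* was nearest to *Il1rn* (0.968), *Ccl2* (0.966) and *Ifi205* (0.956), and *Soat1* to *Ly6i* (0.962), *C3* (0.960) and *H2-Q6* (0.941). *Fabp5* was nearest to *Cd63* (0.949), *Rbm47* (0.926) and *Fblim1* (0.924), and *Plin2* to *Cd44* (0.888), *Gla* (0.874) and *Plk2* (0.869).

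The other genes of these pathways were counted over lists. Of 15 LXR, RXR and LXR-driven genes 14 were tested, and 3 rose at day 12 at 3 months, with none fallen: *Rxrg*, an RXR partner (2.14 ± 0.35), *Apoe*, the main acceptor of exported cholesterol (1.98 ± 0.19), and *Pltp*, which transfers phospholipid between particles (2.13 ± 0.40). *Apoe* and *Rxrg* also rose at day 28 (2.12 ± 0.20 and 2.27 ± 0.35), and none of the 14 was called at 9 or 18 months. *Nr1h2*, which encodes LXR beta, was far above *Nr1h3*, at 19.3 to 44.3 CPM in naive libraries of 3 months, with a log2 fold change of 0.04 ± 0.21 at day 12. *Apoe*, the neighbour of *Apoc1*, held 14690 to 35490 CPM at day 12 and 3 months and 1649 to 43000 CPM at 18 months, and its age difference was -0.99 ± 0.55 (adjusted p = 0.438). Among enzymes of cholesterol synthesis *Sqle*, squalene epoxidase, fell by 2.19 ± 0.37 and *Sc5d*, a sterol desaturase, fell by 1.68 ± 0.24 at day 12 at 3 months. Neither was called at day 12 at 9 months (-1.45 ± 0.56 and -1.52 ± 0.32) or 18 months (-0.17 ± 0.49 and -0.19 ± 0.36).

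**Figure D5:**
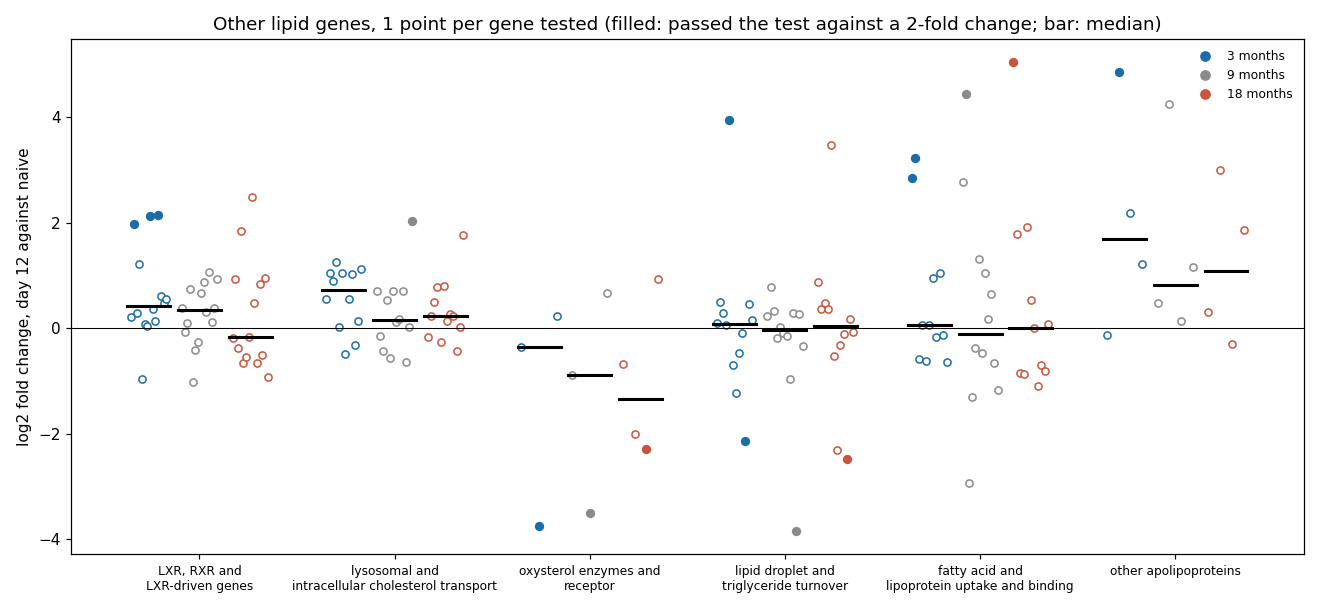
Log2 fold change from naive to day 12 of every tested gene of 6 lists of other lipid genes, at 3 (blue), 9 (grey) and 18 months (red); filled points passed the test against a 2-fold change and bars are medians. The 1 filled point of the oxysterol list at each age is *Gpr183*, below 0, and the 3 filled points of the LXR list at 3 months are *Rxrg*, *Apoe* and *Pltp*, above 0.

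Around *Ch25h*, 3 or 4 of 6 oxysterol genes were tested at each age and 1 fell at day 12 at every age: *Gpr183*, the receptor for an oxysterol made from 25-hydroxycholesterol, fell by 3.75 ± 0.22, 3.51 ± 0.36 and 2.30 ± 0.32 at 3, 9 and 18 months. Its levels at 3 months were 424 to 611 CPM in naive, 16.2 to 92.0 CPM at day 12 and 125 to 323 CPM at day 28. *Cyp27a1* (-0.36 ± 0.22) and *Hsd3b7* (0.23 ± 0.19) were not called at 3 months. *Cyp7b1*, which makes that oxysterol, was at 0.734 CPM or less in every library and was not tested. Of 15 droplet and triglyceride genes 12 were tested; *Mgll*, monoglyceride lipase, fell by 2.13 ± 0.34 at 3 months, fell by 3.84 ± 0.54 at 9 months and fell by 2.48 ± 0.54 at 18 months, and *Dgat2*, which makes triglyceride, was called at 3 months at levels near the 3-count limit (0 to 2.09 CPM in naive, 0 to 5.48 CPM at day 12). *G0s2* (-1.22 ± 0.88) was not called. Of 15 uptake and binding genes 11 were tested at 3 months and 2 rose at day 12, *Fabp3* (3.22 ± 0.56) and the scavenger receptor *Cd36* (2.85 ± 0.36); *Cd36* also rose at 18 months (5.04 ± 0.86) and *Fabp3* at 9 months, from at most 0.605 CPM in naive to 0 to 9.15 CPM. *Fabp3* was also called at day 28 at 3 months (3.06 ± 0.57, adjusted p = 0.0113), and *Slc27a1* was not called at day 12 (1.05 ± 0.36). None of 12 genes of lysosomal and intracellular cholesterol transport was called at 3 months, with a median of 0.72 (*Nceh1* 1.26 ± 0.16, *Tspo* 1.13 ± 0.18, *Npc2* 1.05 ± 0.12), and at 9 months *Tspo* rose (2.03 ± 0.34). Of 7 other apolipoproteins 4 were tested, and *Apoc2* was called at day 12 at 3 months, from at most 0.434 CPM in naive to 2.23 to 11.7 CPM; the naive level is about the 3-count limit, so no size is given. *Apoc4* (2.17 ± 0.53, adjusted p = 0.0781) and *Clu* (1.21 ± 0.35) were not called at day 12, and *Apoc4* rose at day 28 (2.94 ± 0.55, adjusted p = 0.0137).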

How the data were processed

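Microglia were sorted from single retinas (600 cells per library), amplified with SMART-Seq v4 in 16 PCR cycles and sequenced as single-end reads. The authors aligned reads to mm10 with STAR 2.7.8a, made raw counts per gene with featureCounts and adjusted them for collection day with ComBat_seq. The deposited tables hold whole-number counts of 25239 genes, in 64 libraries before and 63 after that correction, and 62 corrected libraries were used. PCR duplicates are not removed, so 3-count limits cover counting error only.

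Groups came from the labels. The corrected counts were fitted with edgeR 4.0.16 in R 4.3.3 (TMM, filterByExpr, quasi-likelihood) per age, per day and over all libraries in 18 groups. Days were tested with glmTreat against a log2 fold change of 1 at an adjusted p of 0.05, and ages and interactions with glmQLFTest at 0.1, with Benjamini-Hochberg adjustment over all genes tested. Ages and interactions thus use a looser threshold than days. DESeq2 1.42.0, other scalings and filters, uncorrected counts and libraries left out were alternatives. On simulated counts 89.5% of 200 genes changed by 3 on the log2 scale were found at day 12 against naive at 3 months (11688 genes), 80.5% at 18 months (11681 genes, 1 false call), 71% in the age-by-day-12 test (13005 genes, 17 false calls), and 81.5% of 200 changed by 2 at 18 against 3 months at day 12 (11541 genes, 22 false calls). Samples of the same number did not deviate together (mean r -0.0243 over 135 pairs, beside 0.0083 over 398 others), and no 2 of 85 pairs within groups were identical. P-values measure the spread between single retinas, which the labels do not tie to animals.

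The 8 genes, the lists and the markers were chosen with earlier results of these data known. All 8 are named in each comparison. From each list of other lipid genes the counts called are given, with the 3 genes of smallest p at day 12 and 3 months, *Apoe*, and the genes behind counts of 5 or fewer, except that the list of cholesterol synthesis genes is not reported in full here. The markers of cell types are given as sums or counts, with only some of the genes behind them named. *Nr1h2*, *Cyp7b1* and *P2ry12* were named after their values were seen.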

Additional observations from a re-analysis of the deposited data

Results flagged for a closer look

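Within groups of 4 libraries, 3 of the 72 pairs of a gene and a group examined had 1 library far from the others, where chance gives about 1 in 20. *Abca1* was at 70.5 CPM in 3-month-old female day-28 replicate 1 and at 53.0 to 54.1 CPM in the others. *Apoc1* was at 71.2 CPM in 3-month-old female day-12 replicate 3, beside 205 to 228 CPM. *Soat1* was at 113.1 CPM in 3-month-old female naive replicate 4, beside 84.9 to 87.8 CPM.

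The change of *Abca1* from naive to day 12 differed between 18 and 3 months by -1.87 on the log2 scale, by the interaction test (glmQLFTest, adjusted p = 0.0613, threshold 0.1). The call was lost in 7 of 43 fits with 1 library left out. It was also lost on uncorrected counts with no batch term (adjusted p = 0.136).

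The 2 libraries outside the comparisons are given in CPM of the uncorrected counts, beside the range of the other libraries of their labelled group. Listed first are the genes above every naive library of the labelled age. The library labelled 9-month-old male day-28 replicate 1, whose *Xist* and Y-linked counts do not match its label, held 170.1 CPM of *Abca1* (30.1 to 78.8), 60.1 of *Ch25h* (7.50 to 107), 250.7 of *Soat1* (53.5 to 160) and 141.1 of *Plin2* (18.7 to 79.5). The library labelled 18-month-old female day-28 replicate 1, which also does not match, held 80.4 CPM of *Abca1* (74.9 to 131), 31.8 of *Apoc1* (9.73 to 94.4), 59.5 of *Fabp5* (144 to 726), 401.3 of *Ch25h* (59.9 to 115), 1.04 of *Nr1h3* (0.425 to 2.96) and 245.3 of *Soat1* (112 to 205). Of these listed genes, *Ch25h* and *Soat1* in the second library and *Abca1*, *Soat1* and *Plin2* in the first were above every other library of the labelled group, and *Fabp5* in the second was below. Genes not above every naive library could also exceed their labelled group. These were *Abcg1* (18.9, beside 4.02 to 8.06) and *Fabp5* (218.5, beside 96.9 to 169.5) in the first. In the second they were *Abcg1* (21.9, beside 14.6 to 21.0) and *Plin2* (146.1, beside 72.5 to 105.5). For the genes listed first the same holds with each library set against the other's group instead: *Abca1*, *Soat1* and *Plin2* in the first were above 74.9 to 131, 112 to 205 and 72.5 to 105.5 CPM, and in the second *Ch25h* and *Soat1* were above 7.50 to 107 and 53.5 to 160 CPM and *Fabp5* below 96.9 to 169.5 CPM. Whether the 2 libraries were exchanged was not tested.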

How the results depend on the processing

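The 20 called values of the 8 genes were recomputed 242 times under other settings, with the same call in 185, no call in 57 and 0 reversed, and 453 times with 1 library left out, with the same call in 411, no call in 42 and 0 reversed. Counts of the 8 genes called that moved by over 1.5 times follow. The cause was not tested.

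The plain quasi-likelihood test called 5 and 4 at day 12 at 9 and 18 months, 3, 1 and 3 at day 28 at 3, 9 and 18 months, and 5, 3 and 1 between the days. Of all genes the plain test called 1501 and 1167 at day 12, beside 486 and 358 in the main test. At day 28 these were 403, 261 and 380, beside 120, 93 and 62. Between the days they were 381, 573 and 110, beside 47, 50 and 0. With no filter on low counts the count of the 8 genes was 2 at day 12 at 18 months, 2 and 1 at day 28 at 3 and 9 months, 4, 2 and 1 between the days, 6 at 18 against 3 months at day 12 (5 in females, 2 in males), 1 at day 28 (2 in females, 1 in males), 1 and 3 at 9 against 3 months in naive and at day 28, 5 for the age-by-day-12 test, and 1 each for sex by day 12 at 9 months and sex by age at day 28. The counts of all genes, in the same order, were 481 (358 in the main test), 216 and 186 (120 and 93), and 129, 276 and 108 (47, 50 and 0). At 18 against 3 months they were 426, 252 and 21 at day 12 (197, 4 and 0) and 140, 162 and 26 at day 28 (26, 14 and 1). The rest were 13, 75, 396, 59 and 47 (0, 0, 21, 1 and 0). DESeq2 called 1 at day 12 at 9 months, and 4 and 1 in females and males at 18 against 3 months at day 12; its size factors called 1 between the days at 9 months. All libraries in 1 fit gave 1 at day 12 and 1 between the days at 9 months, and 3 in females. Uncorrected counts with no batch term gave 1 at day 12 at 9 months and 0 for 9 against 3 months at day 12, for females at 18 against 3 months and for the age-by-day-12 test. The replicate block gave 1 at day 12 at 9 months and moved no other count of the 8 genes by over 1.5 times. Of all genes, in the same order, DESeq2 called 386, 246 and 7 (486, 4 and 0 in the main test) and its size factors 53 (50). All libraries in 1 fit gave 562, 46 and 62 (486, 50 and 4). Uncorrected counts with no batch term gave 411, 48, 1 and 0 (486, 236, 4 and 21), and the replicate block gave 392 (486).

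The first collection day alone gave 0 at day 12 at 9 and 18 months, at day 28 at 18 months, and at 9 and 18 against 3 months at day 12. The second gave 3 at day 12 at 3 months, 0 and 2 between the days at 3 and 9 months, and 0 at 9 against 3 months at day 12. Of all genes, in the same order, the first called 16, 1, 0, 0 and 0, beside 486, 358, 62, 236 and 197 in the main test. The second called 275, 8, 109 and 132, beside 557, 47, 50 and 236. Females alone gave 1 and 0 at day 12 at 9 and 18 months, 0 at day 28 at 18 months, 1 between the days at 3 months, and 1 and 0 at 18 and 9 against 3 months at day 12. Males alone gave 0 at day 12 at 9 months, at day 28 at 18 months, between the days at 3 months and in both age comparisons. Of all genes, in the same order, females alone called 275, 2, 5, 13, 4 and 77, beside 486, 358, 62, 47, 197 and 236. Males alone called 119, 15, 22, 0 and 0, beside 486, 62, 47, 197 and 236. With the library left out for its sex markers, 1 was called at 18 against 3 months at day 28 (1 in females). Of all genes, 26 were called there (119 in females), beside 26 (14) in the main test. Without the 3 day-12 libraries with high microglia markers, an alternative chosen after seeing the data, 3 were called by the age-by-day-12 test, 3 in females and 1 in males, and 1 each between the days at 9 and 18 months. The counts of all genes, in the same order, were 313, 517, 17, 192 and 177, beside 21, 4, 0, 50 and 0.

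With 1 library left out, 5 to 7 were called at day 12 at 3 months, 1 to 4 at 9 months, 2 to 3 and 0 to 1 between the days at 3 and 9 months, 1 to 3 at 18 and 0 to 3 at 9 against 3 months at day 12, 0 to 1 at 18 against 3 months at day 28, 1 to 3 in females at day 12 and 0 to 1 at day 28, and 0 to 2 for the age-by-day-12 test. The latter kept the dispersions of the full fit and left out no 9-month library. The fits with 1 library left out called, of all genes, 474 to 565 and 302 to 634 at day 12 at 3 and 9 months. Between the days they called 26 to 64 and 14 to 192. They called 33 to 449 at 9 against 3 months at day 12, and 15 to 49 at 18 against 3 months at day 28. Females gave 3 to 97 at day 12 and 3 to 45 at day 28, and the age-by-day-12 test gave 0 to 210. Over all genes, 197 were called at 18 against 3 months at day 12, 473 by DESeq2, 426 with no filter, 111 with the replicate block, 100 and 12 on uncorrected counts with and without collection day, and 3 to 418 with 1 library left out. Depth limits *Nr1h3* most, which was at or under 3 counts in 28 of 62 libraries.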
